A study of Sus scrofa with 2 samples.

Results

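The metallothionein genes MT1A (ENSSSCG00025075608), MT1D (ENSSSCG00025075721) and MT2A (ENSSSCG00025075743) were followed over the cell types of pig endometrium. They are the features with these symbols, 3 of 26881 features in the count tables. They were chosen by their measured level in one of the study's 2 libraries over the other in ciliated cells, in earlier results of these data, so their levels and ratios between the libraries are given here as descriptions. Metallothioneins are small cysteine-rich proteins that bind zinc and copper in the cytosol. MTF1, a transcription factor that senses free zinc, switches their genes on, and glucocorticoids, IL6 signalling through STAT3 and oxidant stress are further known inducers. In the endometrium they are known as genes of the epithelium whose level varies over the reproductive cycle.

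Dissociated endometrium was profiled cell by cell with 10x Genomics 3′ libraries. A unique molecular identifier (UMI) tags every transcript molecule that is captured. The embryo loss library (EL) came from a Yorkshire sow aged 3 years with a past abortion and then 3 unsuccessful inseminations in a row. The implantation library (EIS) came from a second Yorkshire sow of 3 years on day 30 of pregnancy. The stage of the EL sow is not given. With 1 sow and 1 library a group, the animal, its pregnancy, its stage and its library cannot be told apart. No test between the groups exists, and every interval below is a 95% interval that covers counting error only.

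The EL library held 43302286 UMIs in 10936 barcodes and the EIS library 36069473 UMIs in 8848 barcodes. After filtering, 9864 EL cells (median 2316 UMIs) and 8068 EIS cells (median 2237.5 UMIs) were kept, and 24 of the 27 barcodes that both libraries share were among them. The libraries stood apart in 1 respect that touches every level below. SLPI, ACP5 and UABP-2, which encode a protease inhibitor, uteroferrin and a uteroferrin-associated protein of uterine secretions, together took 23.0% of EIS UMIs and 0.0348% of EL UMIs. Cells were assigned to types by a gate that asks for at least 3 markers of a type, and 36.9% of EL cells and 59.5% of EIS cells passed no gate. Epithelial cells (4261 EL and 373 EIS), ciliated epithelial cells (1657 and 274) and T or NK cells (173 and 321) could be compared. Trophoblast-like (635), stromal (1210), vascular (215) and macrophage-like cells (192) reached 50 cells in EIS alone. Their EL counterparts numbered 1, 34, 28 and 48 cells and were not compared.

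Over all kept cells, MT1A stood at 287 UMIs per 1000000 UMIs (CPM) in EL and 937 CPM in EIS, MT1D at 546 and 1436 CPM, and MT2A at 1134 and 2130 CPM. In sum the 3 genes gave 1968 CPM in EL and 4503 CPM in EIS. These sums hold the 3 named genes alone. A feature without a symbol that is listed beside MT1A, ENSSSCG00025075534, went the other way, with 2124 CPM in EL against 137 in EIS, and whether reads were split between it and the named genes was not tested. The files do not say whether it belongs to the family. With its UMIs added, the sum in epithelial cells was 5204 CPM in EL against 13251 in EIS, a 2.55-fold ratio, and in ciliated cells 994 against 4684 CPM (4.71-fold). This direction did not hold in the 294 EIS epithelial cells where the 3 genes took under 2% of the UMIs. There the feature stood at 127 CPM beside 2963 CPM for the 3 genes, together below the 5204 CPM of EL.

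In EL the 3 genes fell into one order of cell types. Epithelial cells held the most, ciliated cells less and T or NK cells least, and no neighbouring intervals overlapped. MT1A stood at 369 CPM (361 to 377) in EL epithelial cells, 68.7 CPM (63.1 to 74.7) in ciliated cells and 12.1 CPM (2.49 to 35.2, 3 UMIs) in T or NK cells. MT1D stood at 694, 142 and 28.1 CPM in the same gates. MT2A stood at 1441, 290 and 88.4 CPM.

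In EIS the order began in the same way, with MT1A at 2979 CPM (2919 to 3041) in epithelial cells and 1109 CPM (1063 to 1156) in ciliated cells. MT1D stood at 4601 and 1752 CPM in these gates, and MT2A at 5286 and 1699 CPM. Trophoblast-like cells followed with a summed level of 2551 CPM (2499 to 2605) and stromal cells with 1798 CPM (1757 to 1839). Vascular cells (1078 CPM, 1020 to 1138) and macrophage-like cells (994 CPM, 931 to 1061) did not differ beyond their intervals. T or NK cells were lowest at 747 CPM (682 to 817). The order was not the same for each gene below the epithelial gates. MT1D was higher in T or NK cells (256 CPM) than in macrophage-like (154 CPM) or vascular cells (111 CPM), and the intervals of the latter pair overlapped. A single T or NK cell decided this order, and without it MT1D had 83.6 CPM there (62.7 to 109). MT2A was lowest in T or NK cells (357 CPM), below macrophage-like (643 CPM) and vascular cells (833 CPM). The order also changed when cells in which the 3 genes took 2% or more of the UMIs were left out. Epithelial cells then led with a summed 2963 CPM, before trophoblast-like (2378 CPM), stromal (1722 CPM), vascular (1078 CPM) and macrophage-like cells (899 CPM), and ciliated cells (577 CPM) came next to last, above T or NK cells (346 CPM). The place of ciliated cells in the order thus rested on 7 of 274 cells, and their median cell held 193 CPM against 2101 CPM in trophoblast-like cells.

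**Figure D1:**
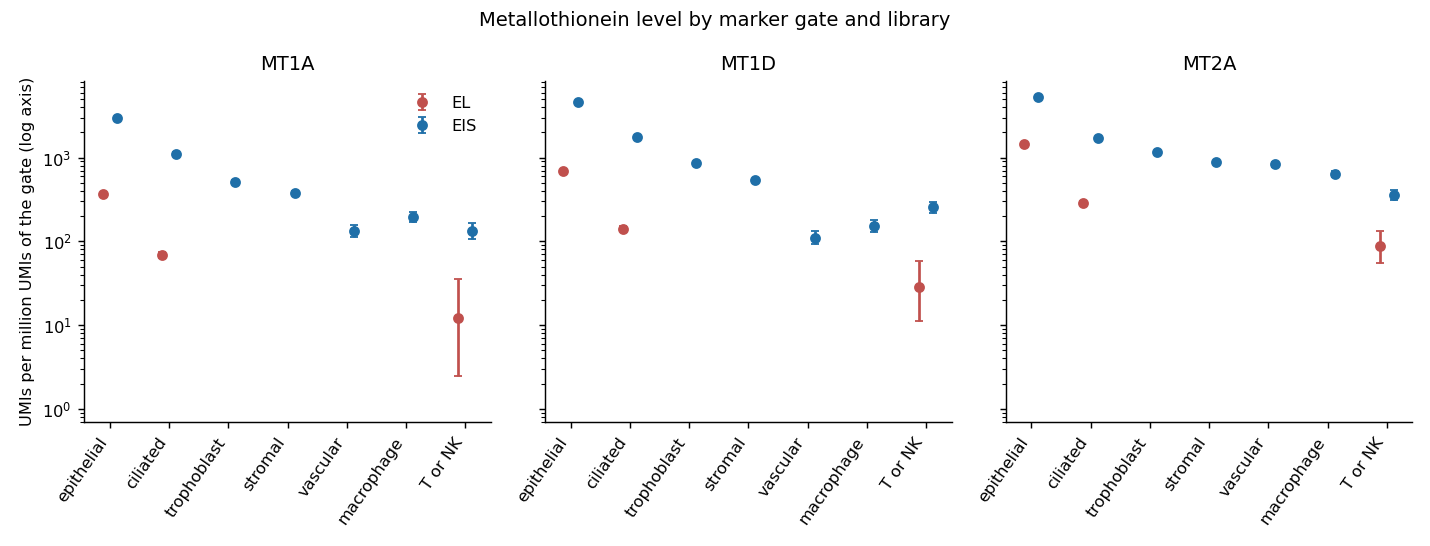
Level of MT1A, MT1D and MT2A in UMIs per 1000000 UMIs of a gate (log axis), by marker gate, for EL (red) and EIS (blue), with exact Poisson 95% intervals that cover counting error only. The EIS points lie above the EL points in each of the 3 gates compared, and vascular and macrophage-like cells hold MT2A at 833 and 643 CPM with MT1D at 111 and 154 CPM.

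Between the libraries, MT1A was 8.08-fold higher in EIS epithelial cells (7.84 to 8.32), MT1D 6.63-fold (6.49 to 6.79) and MT2A 3.67-fold (3.60 to 3.74). In ciliated cells the ratios were 16.1-fold (14.7 to 17.7) for MT1A, 12.3-fold (11.5 to 13.2) for MT1D and 5.86-fold (5.55 to 6.18) for MT2A. In T or NK cells they were 11.1-fold (3.67 to 54.8), 9.11-fold (4.33 to 23.0) and 4.04-fold (2.61 to 6.58), on 3, 7 and 22 EL UMIs. In each gate MT1A had the largest ratio and MT2A the smallest, though in T or NK cells the intervals overlapped. A ratio of 4-fold or more toward EIS was reached by 2 of the 3 genes in epithelial cells, where 4.42% of all measured genes reached it. In ciliated cells 3 of 3 did, against 1.17% of genes, and in T or NK cells 3 of 3, against 1.67%. Because this contrast chose the genes, nothing is read from these counts. The median gene stood at a log2 ratio of -1.0 in epithelial cells, -0.04 in ciliated cells and -0.11 in T or NK cells. Relative to it, the sum of the 3 genes was higher in EIS by 3.37, 3.22 and 2.65 (log2). In bulk sums of this kind, more cells with a transcript and more transcript per cell cannot be told apart, so the cells were then taken one by one.

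Much of the EIS surplus in epithelial and ciliated cells sat in few cells. The share of a cell's UMIs taken by the 3 genes together reached 27.3% in the highest EIS cell and 2.11% in the highest EL cell. A mark at 2% of a cell's UMIs, chosen after the values had been seen, was passed by 267 EIS cells (3.31% of those kept) and by 1 EL cell. These 267 cells held 48.1% of all metallothionein UMIs of the EIS library, and 164 of them passed no gate. At 1% the numbers were 636 EIS and 107 EL cells, at 5% 145 and 0, and at 10% 66 and 0. Cells at or above 2% are called high cells below. As the mark is set on the 3 genes themselves, leaving these cells out had to lower the sums, mainly in EIS.

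**Figure D2:**
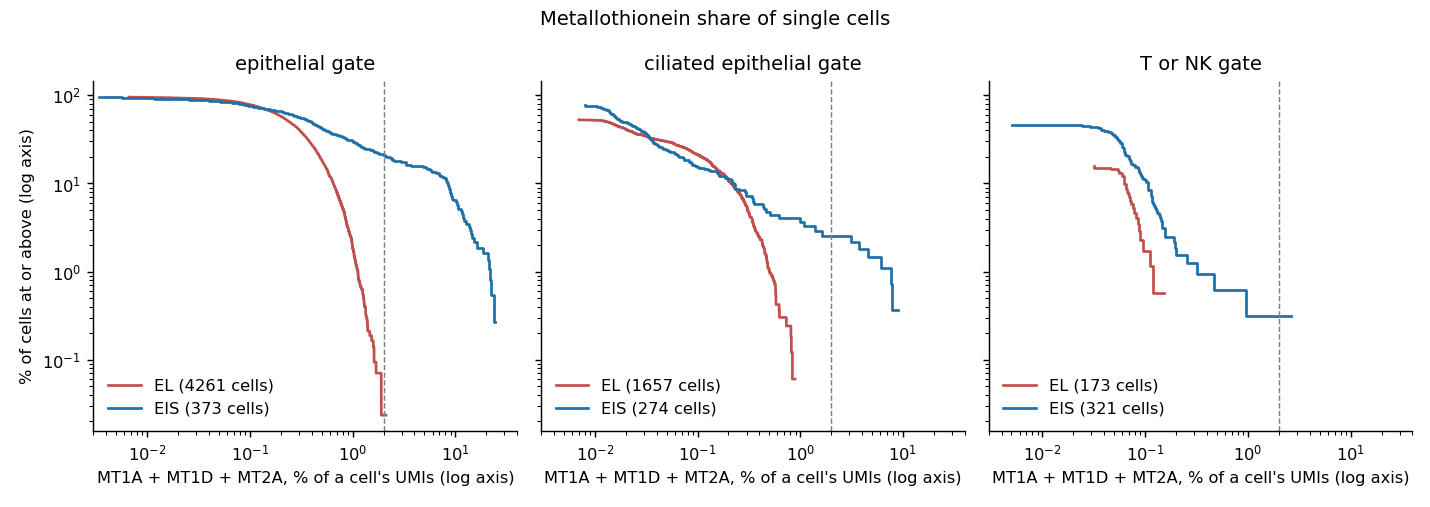
Percent of cells (vertical, log axis) in which MT1A, MT1D and MT2A together take at least a given percent of the cell's UMIs (horizontal, log axis), for EL (red) and EIS (blue) in 3 gates; the dashed line marks 2%. The EIS curves of epithelial and ciliated cells run on to 24.6% and 8.95%, past the EL maxima of 2.11% and 0.891%.

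Among EIS epithelial cells, 79 of 373 were high cells (21.2%) and held 79.8% of the gate's metallothionein UMIs. Of the 373 cells, 247 carried just the minimum of 3 markers. The EIS sum of 12866 CPM was 8280 CPM with every marker counted and 7575 CPM with clusters as gates. In the high cells MT1A stood at 21320 CPM, MT1D at 33778 CPM and MT2A at 28233 CPM, 8.33% of all UMIs in sum. Without the high cells, the sum was 2963 CPM in EIS and 2502 CPM in EL, a log2 ratio of 0.24 in place of 2.36. In CPM MT1D turned to the other side, at 501 CPM in the other EIS cells against 693 CPM in EL (log2 -0.47). MT1A stood at 402 against 369 CPM (log2 0.12) and MT2A at 2061 against 1440 CPM (log2 0.52). The median gene of the gate, taken over all its cells, stood at -1.0. All 3 metallothioneins, MT1D included, lay above that value without the high cells too. The median epithelial cell held 2422 CPM of the 3 genes in EL and 3943 CPM in EIS. The lower quartile was 1166 CPM in EL and 1063 CPM in EIS, while the 90th percentile was 6489 CPM in EL and 83939 CPM in EIS. After each cell was thinned to 1000 UMIs, 82.5% of EL cells (81.3 to 83.7, exact Clopper-Pearson interval) and 84.9% of EIS cells (80.7 to 88.4) held at least 1 UMI of the 3 genes, and unthinned 95.4% and 96.0%.

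Among EIS ciliated cells, 7 of 274 cells held 88.1% of the metallothionein UMIs. Without these 7 cells the sum was 577 CPM in EIS and 501 CPM in EL, a log2 ratio of 0.20 in place of 3.19. The log2 ratio was then 0.81 for MT1A and 0.08 for both MT1D and MT2A. The median ciliated cell held 132 CPM in EL and 193 CPM in EIS, and after thinning 26.4% of EL cells (24.2 to 28.7) and 28.3% of EIS cells (23.0 to 34.1) held a UMI of the 3 genes. Unthinned, the shares were 52.7% at a median of 4831 UMIs and 77.0% at a median of 6708.5 UMIs. The direction turned under a stricter gate, on few EIS cells. When cells with a marker of any other type were left out, 429 EL and 38 EIS ciliated cells remained, and the sum was 358 CPM in EL and 252 CPM in EIS (log2 -0.50).

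The 7 high ciliated cells carried 7 to 9 ciliated markers each, 8 in the median. The other 267 also had a median of 8, but 20 of them carried 3 or 4 markers and 33 carried 5 or 6. The high ciliated cells were large, with 10601 to 27062 UMIs against a median of 6550 in the others. The metallothioneins took 3.15% to 8.95% of their UMIs. The cell with the highest share held 336 MT1A, 696 MT1D and 544 MT2A UMIs of 17612, and the cell with the lowest held 68, 113 and 165 of 11000. SLPI, ACP5 and UABP-2 took a median of 12.9% of their UMIs (0.949 to 14.0) against 0.967% in the other ciliated cells. Their median doublet score was 0.102 against 0.0181 in the others, though all 7 had passed the doublet filter. The high ciliated cells carried a median of 5 epithelial markers against 3 in the others. The secretion genes, the epithelial markers, the depth and the doublet score thus moved together with the metallothioneins in these cells. Their part in the result was not tested.

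Markers of other cell types differed between the libraries in these gates. In ciliated cells the summed level of 7 stromal markers was 22.5 CPM in EL and 236 in EIS, with PDGFRA at 0 in a library. The 9 ciliated markers summed to 4826 and 4089 CPM. In epithelial cells the 7 smooth muscle or pericyte markers summed to 2.50 and 125 CPM, with CNN1, DES, RGS5 and KCNJ8 at 0 in a library, and the 6 epithelial markers to 3588 and 3028 CPM. Their part in the contrast was not tested.

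In T or NK cells 1 of 321 EIS cells held 54.5% of the metallothionein UMIs. Without it the sum was 346 CPM in EIS and 129 CPM in EL (log2 1.43 in place of 2.54). After thinning, 9.93% of EL cells (5.67 to 15.9) and 29.7% of EIS cells (24.7 to 35.1) held a UMI of the 3 genes, and unthinned 15.6% at a median of 1347 UMIs and 46.1% at 1791. The log2 ratio without that cell was 2.39 for MT1A, 1.57 for MT1D and 1.17 for MT2A. In CPM each was larger than in the epithelial and ciliated gates without their high cells. The median gene differed between gates, at -1.0 in epithelial and -0.11 in T or NK cells, and was not taken into account here. The T or NK ratio rests on 32 EL UMIs in all. Stromal markers moved with it in these cells: the 7 of them gave 12.1 CPM in EL against 340 in EIS, with COL1A1, COL1A2, PDGFRA and COL5A1 at 0 in a library. The 12 T or NK markers gave 6894 and 4964 CPM, with CD3G at 0 in a library. The part of stromal RNA or of the secretion genes in the T or NK values was not tested.

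**Figure D3:**
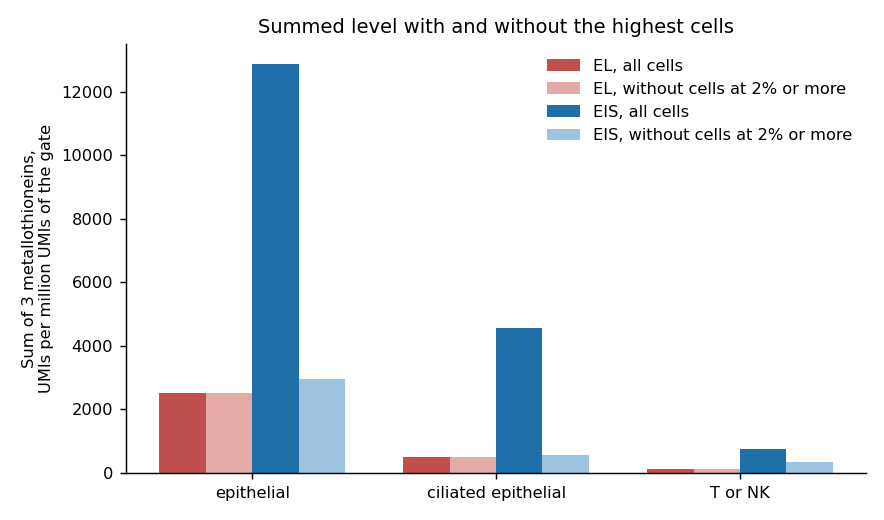
Summed level of MT1A, MT1D and MT2A in UMIs per 1000000 UMIs of a gate (linear axis from 0) in EL (reds) and EIS (blues), for all cells of a gate (dark) and without cells at 2% or more (pale); each bar is 1 library and has no replicate error. The EIS bars go from 12866 to 2963 CPM in epithelial and from 4559 to 577 CPM in ciliated cells, close to the EL bars at 2502 and 501 CPM. Bars are not scaled to the median gene, which over all epithelial cells had a log2 ratio (EIS over EL) of -1.0.

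Within EL, where 1 cell passed the mark, the level varied among epithelial cells by their other genes. Subsets named by marker genes of earlier results of these data held 3435 CPM in sum where JPH4 and JAKMIP1 mark the cells (1128 cells), 3760 CPM with PON3 (345 cells) and 3559 CPM with CCK and AQP3. CYP26A1 encodes a retinoic acid hydroxylase. The 743 cells marked by it held 817 CPM (798 to 837), and MT1A stood there at 48.0 CPM against 538 to 641 CPM in the other subsets. These cells were also deeper, with a median of 11009 UMIs against 3176.5 to 4133.5. Among EL ciliated cells the level was lower where more ciliated markers were present, from 1573 CPM in 480 cells with 3 or 4 markers (median 1237.5 UMIs) to 510 CPM with 5 or 6 and 325 CPM in 824 cells with 7 to 9 (median 6180.5 UMIs).

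In EIS, clusters made without the metallothioneins placed 176 of the 267 high cells among 931 cells led by SLPI, UABP-2 and ACP5. That cluster held 9871 CPM of the 3 genes, with a median cell of 3349 CPM, and 3522 CPM without its high cells. A further 27 high cells lay in a cluster of 93 cells led by TMEM213 and MMP7, and 38 in a shallow cluster of 1820 cells led by ACTG2. The cluster of 93 cells held 14771 CPM with a median cell of 9833 CPM, and 4382 CPM without its high cells. Leading genes were taken over a whole cluster, not over its high cells. In the 79 high EIS epithelial cells TMEM213 had 0 UMIs and MMP7 had 1, against 439 and 382 in the other 294. Some deep EIS clusters were low. A cluster of 111 cells led by IGFBP2 and AQP8 (median 12521 UMIs) held 299 CPM, and 138 stromal cells led by APOE and COL3A1 (median 15155.5 UMIs) held 79.2 CPM (67.5 to 92.4).

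High and other epithelial cells of EIS differed in other genes too. These genes were picked for that difference after their values had been seen. SAL1, a lipocalin that carries small lipophilic molecules, stood at 7624 CPM in the 79 high cells and 53.6 CPM in the other 294, on 2897 and 145 UMIs. It was found in 39 of the 79 cells. CBR2, a carbonyl reductase, stood at 495 against 18.5 CPM, and the water and glycerol channel gene AQP3 at 211 against 13.7 CPM. The claudin gene CLDN10, itself 1 of the 6 epithelial markers of the gate, stood at 303 against 35.1 CPM. FXYD2, a regulator of the sodium pump, stood at 363 against 41.8 CPM, and the amino acid transporter gene SLC7A8 at 132 against 7.03 CPM. Among the genes lower in high cells, UPTI, a plasmin and trypsin inhibitor of uterine secretions, stood at 226 against 15140 CPM. FXYD4 stood at 0 against 517 CPM, and HPGD, which degrades prostaglandins, at 15.8 against 590 CPM. SLPI, ACP5 and UABP-2 took a median of 9.98% of the UMIs of high cells and 31.5% of the others, the reverse of the order in ciliated cells.

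Cells were then ranked by SAL1, which had been picked for its level in high cells. Of the 100 EIS cells with at least 5000 CPM of SAL1, 53 were high cells and the median cell held 3.19% metallothionein UMIs. Of the 6463 EIS cells without a SAL1 UMI, 144 were high cells (2.23%) and the median cell held 0.167%. The EIS cells between 1000 and 5000 CPM of SAL1 held 5.78% high cells. Of the 7 high ciliated cells 4 carried SAL1, at 8064 CPM over the 7, against 14.7 CPM in the other 267. In EL, 164 cells had at least 5000 CPM of SAL1 and none was a high cell. Their median cell held 0.346% against 0.114% in the 6391 EL cells without SAL1, so in both libraries the median metallothionein share was higher where SAL1 was higher.

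The metallothionein levels of the EIS gates were set beside those of the secretion genes SLPI, ACP5 and UABP-2. In stromal cells the metallothioneins reached 0.373 to 0.415 times the level of the whole EIS library and the secretion genes 0.452 to 0.497. In trophoblast-like cells the values were 0.548 to 0.602 and 0.479 to 0.513. In both gates the 6 genes thus lay close together. In T or NK cells the metallothioneins stood at 0.143 to 0.178 and the secretion genes at 0.0873 to 0.102. Without the 1 high T or NK cell, the metallothioneins were at 0.0582 to 0.0934 and the secretion genes at 0.0719 to 0.0782, still divided by the whole library. In vascular cells MT1A (0.143) lay beside the secretion genes (0.146 to 0.174), MT1D below them (0.0772) and MT2A above (0.391). Macrophage-like cells showed the same split, with MT1D at 0.108, MT1A at 0.210 and MT2A at 0.302 around secretion genes at 0.205 to 0.249. In ciliated cells the metallothioneins reached 0.798 to 1.22 and the secretion genes 0.0868 to 0.108. This gap was smaller without the 7 high cells, at 0.105 to 0.144 and 0.0687 to 0.0891 times the level of the whole library. In both gates the high cells of the library stayed in the divisor. The summed metallothionein level of all kept EIS cells was 4503 CPM with high cells and 2411 CPM without. Divided by a library without high cells, the metallothionein values of both gates would be higher.

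**Figure D4:**
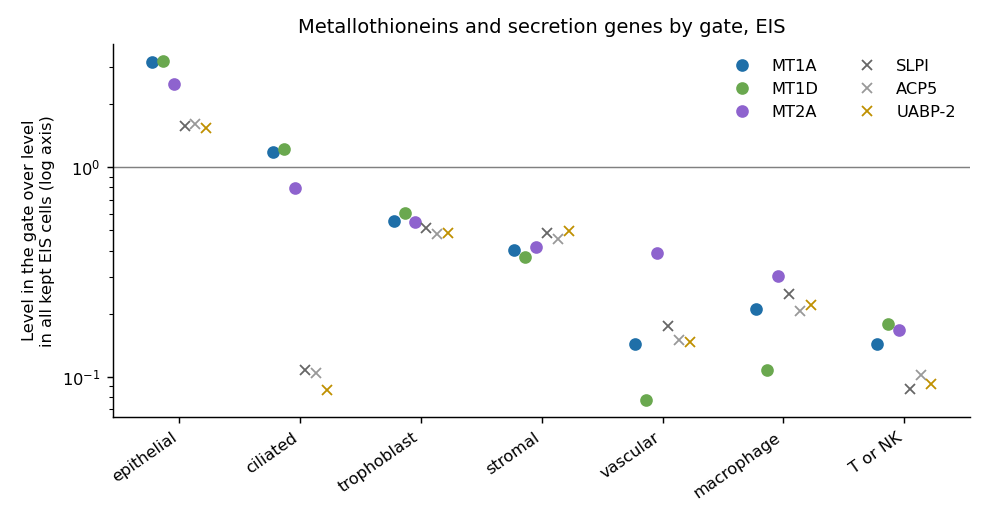
Level of each gene in an EIS gate divided by its level over all kept EIS cells (log axis; the line marks 1), for the 3 metallothioneins (dots) and 3 genes of uterine secretions (crosses). Dots and crosses lie together in trophoblast-like and stromal cells and straddle each other in vascular and macrophage-like cells. They part in ciliated cells, at 0.798 to 1.22 against 0.0868 to 0.108. The dots there rest on 7 of 274 cells and are at 0.105 to 0.144 without them, still divided by all kept EIS cells, high cells included.

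Depth moved with these levels. In EIS stromal cells the sum was 5910 CPM at 500 to 1000 UMIs, 4004 CPM at 1000 to 2000, 2832 CPM at 2000 to 5000 and 411 CPM at 5000 or more, and the secretion genes took 20.3%, 22.3%, 21.5% and 3.21% of UMIs in the same cells. In vascular cells of at least 5000 UMIs, where the secretion genes took 1.82%, MT2A stood at 713 CPM with MT1A at 103 and MT1D at 46.2 CPM. In macrophage-like cells of that depth MT2A stood at 460, MT1A at 148 and MT1D at 86.2 CPM. Over single EIS cells thinned to 1000 UMIs, the Pearson correlation of the metallothionein sum with the secretion genes was 0.73 in 884 stromal, 0.69 in 614 trophoblast-like, 0.63 in 172 macrophage-like, 0.58 in 194 vascular, 0.57 in 272 ciliated, 0.25 in 357 epithelial and 0.11 in 313 T or NK cells. High cells were included. The cells share a library and its free RNA, transcripts of broken cells that enter every droplet, and these values are descriptions. The part of free RNA in the levels of these gates was not tested.

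The make-up of the metallothionein UMIs differed between gates and libraries. A share of the summed UMIs says nothing of which gene is more expressed, only how the mix shifts. In EL epithelial cells MT1A gave 14.7% of the UMIs (14.4 to 15.0), MT1D 27.7% and MT2A 57.6%, and EL ciliated cells showed nearly the same mix at 13.7%, 28.4% and 57.9%. In EIS epithelial cells the mix was 23.2%, 35.8% and 41.1%, and in EIS ciliated cells 24.3%, 38.4% and 37.3%. MT2A thus had the smaller share in EIS in both epithelial gates over all their cells. In epithelial cells this direction turned without the 79 high cells, where the mix was 13.6%, 16.9% and 69.5%. Without the 7 high ciliated cells the mix there was 20.9%, 26.0% and 53.1%. Vascular cells of EIS had the mix richest in MT2A, with 12.4% MT1A, 10.3% MT1D (8.69 to 12.1) and 77.3% MT2A (74.9 to 79.5). Macrophage-like cells followed with 19.8%, 15.5% and 64.7%. The 48 macrophage-like cells of EL, too few to compare, held 23.5% MT1A, 5.0% MT1D and 71.5% MT2A.

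**Figure D5:**
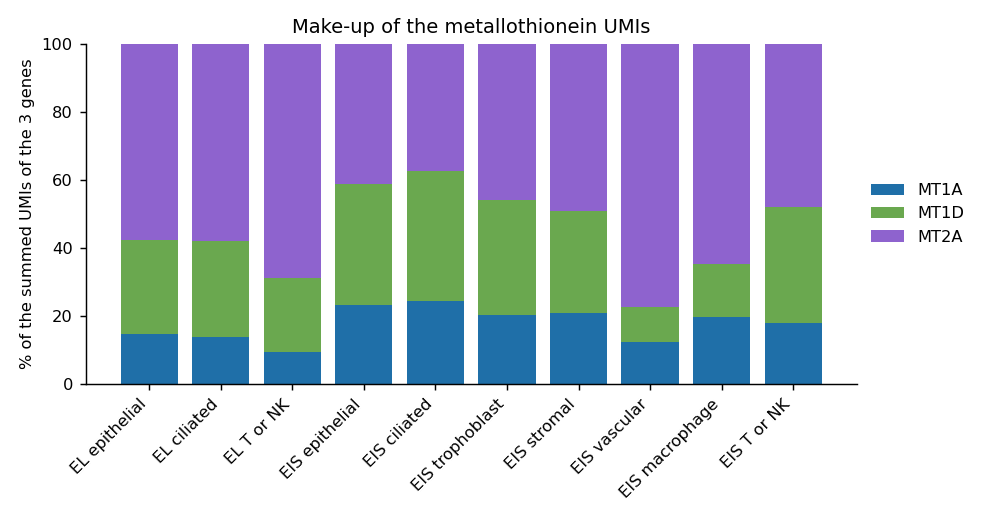
Percent of the summed UMIs of MT1A, MT1D and MT2A contributed by each gene, by library and gate; each bar is 1 library. MT2A runs from 37.3% in EIS ciliated cells to 77.3% in EIS vascular cells, and the EL T or NK bar rests on 32 UMIs. Without high cells MT2A is at 69.5% in EIS epithelial and 53.1% in EIS ciliated cells.

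The 3 genes varied together from cell to cell, T or NK cells apart. Over EIS epithelial cells thinned to 1000 UMIs the Pearson correlations between pairs were 0.79 to 0.84 (357 cells), and over EIS ciliated cells 0.68 to 0.76 (272 cells). Both EIS gates include their high cells, which hold most of the metallothionein UMIs there. Over EL epithelial cells the correlations were 0.45 to 0.50 (3958 cells), and over EL ciliated cells 0.40 to 0.50 (1509 cells). In T or NK cells they were -0.05 to -0.02 in EL (151 cells) and 0.09 to 0.21 in EIS (313 cells). The EL T or NK gate held 32 UMIs of the 3 genes in all. Over the 10 combinations of gate and library they were 0.92 to 0.97. The genes with a symbol whose level was most like that of the 3 metallothioneins over these 10 points, among 4837 ranked, were S100A2 (0.93), CD320 (0.90), DNAJC12 (0.89), CERS4 (0.86) and GRB7 (0.86). S100A2 encodes a calcium-binding protein and CD320 the receptor for transcobalamin. S100A2 had 63.0 CPM in EL against 471 in EIS epithelial cells, and 27.1 and 207 CPM in ciliated cells. The points share libraries, depth and free RNA, and the list itself moved with the measure: rank correlation kept 1 of the 5.

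Of the regulators listed, 4 besides the members were among the features. MTF1, the zinc sensor, had 38.1 CPM in EL against 14.6 in EIS epithelial cells (0.383-fold, 0.277 to 0.517), and 49.1 and 42.3 CPM in ciliated cells (0.861-fold). The median gene stood at -1.0 (log2) in epithelial cells, and MTF1 lay at -1.38. NFE2L2, which drives the oxidant response, stood at 77.0 and 71.7 CPM in epithelial cells and 112 and 133 CPM in ciliated cells. HIF1A, the hypoxia factor, stood at 78.4 and 59.7 CPM and at 72.8 and 61.1 CPM. None of the 4, which include MTF2, reached a 4-fold ratio in either direction in these gates. Of all genes, 18.2% in epithelial and 2.04% in ciliated cells reached it toward EL, and 4.42% and 1.17% toward EIS. In T or NK cells 3 of the 4 had enough UMIs and likewise none reached it, against 0.533% of genes toward EL and 1.67% toward EIS.

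Of 10 zinc exporters listed, 4 were found. SLC30A2, which loads zinc into vesicles, had 259 CPM in EL against 125 in EIS epithelial cells (0.481-fold, 0.433 to 0.534) and 50.5 and 24.5 CPM in ciliated cells (0.485-fold). Within EIS epithelial cells it stood at 392 CPM in the high cells and 87.3 CPM in the others. SLC30A1, the zinc exporter of the plasma membrane and itself a target of MTF1, stood at 41.3 and 30.8 CPM in epithelial cells and at 54.4 and 37.2 CPM in ciliated cells. Of 14 zinc importers 8 were found. None of the 7 measured in epithelial cells reached a 4-fold ratio, where 4.42% of all genes did toward EIS and 18.2% toward EL. Their median log2 ratio was -0.89 against -1.0 for all genes.

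Among 12 copper genes measured in epithelial cells, 1 was at least 4-fold higher in EIS and 2 in EL, where 4.42% and 18.2% of all genes were. STEAP4, a metalloreductase, had 124 CPM in EL against 10.1 in EIS, and SLC31A2, a copper transporter of endosomes, had 126 and 15.2 CPM. STEAP3 stood at 1.47 and 23.3 CPM. The copper chaperone gene ATOX1 was 0.658-fold (EIS over EL) in epithelial cells, at 332 CPM in EIS, and 1.12-fold in ciliated cells, at 311 and 348 CPM. In ciliated cells none of the 12 reached 4-fold, against 1.17% of all genes toward EIS and 2.04% toward EL. Of 8 oxidant and metal stress genes, 1 passed 4-fold toward EIS in epithelial cells, against 4.42% of all genes. It was NQO1, at 0.936 and 5.51 CPM. The heat shock genes DNAJB1 (792 and 687 CPM) and HSPB1 (739 and 381 CPM) were the most counted of this list there. In EIS high epithelial cells DNAJB1 stood at 1071 CPM against 634 CPM in the other epithelial cells, and HSPB1 at 574 against 354 CPM. HSPH1, of the same list, went the other way, at 97.4 against 133 CPM. The secretion genes took a median of 9.98% of UMIs in the high cells and 31.5% in the others, which these levels do not take into account.

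Genes induced by glucocorticoids differed in both directions in epithelial cells. Of 7 measured, 2 were at least 4-fold higher in EIS and 2 in EL, and of all genes 4.42% and 18.2%. FKBP5 had 193 CPM in EL against 15.9 in EIS, and TSC22D3 had 24.6 and 5.19 CPM. PDK4 stood at 0.713 and 77.8 CPM, CEBPD at 3.97 and 25.6 CPM, and SGK1 at 80.5 and 179 CPM. In ciliated cells 1 of the 7, PDK4, passed 4-fold toward EIS, at 26.7 and 112 CPM (1.17% of all genes), and FKBP5 stood at 122 and 178 CPM. Of 9 genes of IL6 signalling and STAT3, 4 were at least 4-fold higher in EIS epithelial cells and 1 in EL, beside the same 4.42% and 18.2% of all genes. SOCS3, the feedback inhibitor, had 8.15 CPM in EL against 270 in EIS. IL6ST, the shared receptor chain, stood at 42.0 and 540 CPM, IL6 at 1.20 and 75.9 CPM, and LIF at 0.0891 (2 UMIs) and 40.9 CPM. HP, haptoglobin, stood at 33.1 and 2.59 CPM. The median of this list was a log2 ratio of 1.18 against -1.0 for all genes. In ciliated cells none of its 8 measured genes was 4-fold higher in EIS, where 1.17% of all genes were. The nearest was SOCS3, at 49.8 and 181 CPM. Toward EL 1 of the 8 was, HP at 4.60 and 0.509 CPM (37 and 1 UMIs), beside 2.04% of all genes. The median of the 8 was 0.78 against -0.04. Within EIS epithelial cells, IL6ST stood at 1240 CPM in high cells and 441 CPM in the others, while SOCS3 stood at 295 and 266 CPM.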

How the data were processed

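The deposited matrices hold raw UMI counts per feature and barcode, not normalized. Per the submitters' processing notes Cell Ranger 2.1.1 was used, while per the file headers it was cellranger 6.1.0; the build and annotation were not given in the sources used here. MT1A and MT1D are related genes, so counts may be split between near-identical copies, which was not resolved. None of the feature IDs (0) matched the reference table of gene names, and 16128 of 26881 features carry no symbol (26.7% of EL and 23.0% of EIS UMIs).

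Cells with at least 500 UMIs and 300 genes were kept, and the top 0.8% of Scrublet scores per 1000 barcodes (scanpy 1.11.5) were removed. A marker counted where its share of the cell was at least 0.5 of its share of the library. A gate asked for 3 such markers and at least 2 times as many as of any other type. Epithelial markers were not held against ciliated or trophoblast-like cells, smooth muscle markers not against stromal cells and lymphatic not against vascular. The 0.5 limit and these exceptions were set after a first pass had left most EIS cells ungated. Of the listed markers 6 of 13 epithelial, 9 of 19 ciliated and 12 of 15 T or NK markers were among the features. Gates of at least 50 cells were used.

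Levels are UMIs per 1000000 UMIs of a gate with exact Poisson intervals. Shares have exact Clopper-Pearson intervals, and ratios exact conditional intervals, at 95%. Genes with at least 20 UMIs over both libraries entered the ratios of all genes. The ratio code was checked on simulated counts. PCR and capture error are not covered. Clusters used 2000 variable genes without the 3 members and 2 unnamed features listed beside MT1A, 30 principal components, 15 neighbours and leidenalg 0.10.2 at resolution 1.0. Like genes were ranked by Pearson correlation of log2 of CPM plus 1, among genes with at least 50 CPM in 1 gate. TMM factors came from edgeR 4.0.16, and intervals from scipy 1.17.1 under Python 3.11.15. The members, lists and markers were chosen with earlier results of these data known. The named genes are the members, pathway genes with at least 50 CPM in 1 library or among the 3 largest ratios of a list, and the 5 most alike genes; genes that part high from other cells were named after their values were seen.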

Additional observations from a re-analysis of the deposited data

Results flagged for a closer look

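Beside MT1A the feature list holds 2 features without a symbol, which are not among the 3 members and whose identity the files do not give. Both were higher in the EIS high cells than in the other EIS cells. ENSSSCG00025075534 stood at 1770 CPM in the 267 high cells and 85.1 CPM in the others, and ENSSSCG00025075695 at 1271 and 29.4 CPM. The first went the other way between the libraries: it stood at 2124 CPM over EL cells and 137 CPM over EIS cells, and in EL epithelial cells at 2702 CPM (2680 to 2723) against 385 CPM (363 to 407) in EIS. In ciliated cells it stood at 493 and 124 CPM. Its Pearson correlation with the sum of the 3 metallothioneins over cells was 0.60 in EL (9864 cells) and 0.42 in EIS (8068 cells). Whether reads of the 3 named genes and of these features were shared out by sequence was not tested.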

How the results depend on the processing

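All values here are log2 ratios of EIS over EL for the sum of the 3 genes unless said otherwise. None is taken relative to the median gene, which stood at -1.0 in epithelial cells in the main setting. In epithelial cells (2.36) the ratio was 2.06 with 2 markers, 2.82 with 5, 2.14 without markers of other types, 1.67 with clusters as gates, 3.12 without genes over 1% of a library, 3.20 with TMM factors, 2.81 as a mean over cells, 2.43 with 10% free RNA removed, 2.82 thinned, 1.73 with every marker counted, 2.11 in cells of at least 5000 UMIs and 0.24 without high cells, where MT1D turned (-0.47). In ciliated cells (3.19) it was 2.64, 3.63 and -0.50 (MT1A -0.86, MT1D -0.65, MT2A -0.38) in the first 3 settings, 2.57 with doublets kept, 4.12 with clusters, 1.80 as a mean over cells, 3.75 with free RNA removed, 1.97 thinned, 3.32 in deep cells and 0.20 without high cells. In T or NK cells (2.54) it was 1.51 with 5 markers, 1.69 without other markers, 1.64 with doublets kept, 1.23 with clusters, 2.01 as a mean over cells, 1.59 with every marker counted and 1.43 without high cells. Free RNA removal took their EL level to 0, and too few were deep, so these gave no value. The log2 level of epithelial over T or NK cells in EIS (4.11) was 6.05 with 5 markers, 5.41 with free RNA removed and 3.10 without high cells. The setting with 5 markers left 16 EIS epithelial cells, and that without markers of other types 38 EIS ciliated cells. Both are fewer than the 50 asked of a gate. Of the 5 most alike genes 1 was kept by rank correlation and 3 without the filter on low values. The settings for high cells, deep cells and every marker were added after seeing the data. Beyond the removal of high cells, the cause of these shifts was not tested. No paired analysis was possible because each group is 1 library. Depth limits T or NK cells most, with 32 EL UMIs.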
